A study of Mus musculus with 108 samples.

Results

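Motile cilium genes encode the beating axoneme and the factors that switch it on, and 45 of them were followed here through 3 periods and 3 regions of the Cul3+/- mouse brain. They were 45 of the 53465 genes in the deposited table, picked by symbol and matched to the table through their Ensembl identifiers. Their levels over the 9 period-by-region groups in both genotypes, and the genotype contrast in hippocampus at postnatal day 7, were in view when they were chosen. Those values are therefore given as a description. Ribosome-depleted RNA-seq was run on cerebellum (CB), hippocampus (HIP) and cerebral cortex (CX) of 36 mice, taken late in gestation (E17.5), on postnatal day 7 (P7) or as adults, called P35 in the labels. The question was how loss of a Cul3 copy alters other transcripts. Wild-type (WT) mice carried 2 intact copies of Cul3, the scaffold of a ubiquitin ligase, on a background that the labels spell C56Bl/6N and the study's methods C57BL/6N. Mutants (HET) carried, in the germline and in every cell, a frame-shifting single-base insertion in 1 copy, made by genome editing and bred from 1 founder, so that all mutants represented 1 allele. No group received a treatment. Each mouse gave 1 library per region, and each group held 6 mice at E17.5 and P7 and, after the exclusion given below, 5 in adults. Sex was not given in the labels, and p-values here measure the spread between mice.

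Motile cilia in the brain stand in tufts on ependymal cells, which line the ventricles and move cerebrospinal fluid, and choroid plexus epithelium carries cilia of a related kind. The axoneme is built of doublet microtubules around a central pair. Dynein arms on the doublets drive bending, while radial spokes, the central apparatus and the nexin-dynein regulatory complex set its timing. Neurons and astrocytes carry a single primary cilium that lacks most of this machinery. Ependymal cells are a thin layer in each dissected region, and in bulk tissue fewer cells of a type and less RNA per cell cannot be told apart.

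Library totals ran from 15126114 to 44411282 expected counts, and values are CPM, counts brought to a common library total and scaled by the trimmed mean of M-values (TMM). Cul3 fell in the mutants in all 9 datasets, to between 0.503 and 0.600 of its WT level, with no overlap between genotypes. For the adult mice 22, labelled HET, and 23, labelled WT, a supplementary list gave the opposite genotype, so their 6 libraries entered no genotype comparison and 102 were kept. Their Cul3 level followed the labels, at 95.7 to 121 CPM in mouse 22 and 196 to 227 CPM in mouse 23. Regional markers followed the labels. The dentate factor Prox1 reached at least 44.9 CPM in every hippocampal and at most 19.99 CPM in any cortical library. Adult cerebellum held Prox1 too, at 35.5 to 79.2 CPM, and was set apart from hippocampus by En2. This cerebellar factor held at least 68.0 CPM in cerebellum and at most 0.960 CPM elsewhere. Several hippocampal and cerebellar libraries held choroid plexus RNA. The summed level of 20 choroid plexus genes was 5076 CPM in the E17.5 HIP library of WT mouse S2_11 and 4888 CPM in the P7 HIP library of HET mouse C1_3, against 39.7 to 402 CPM and 68.0 to 240 CPM in the other libraries of those regions and periods. The adult HIP libraries of WT mice 17 and 26 were rich in these genes too, at 3750 and 2692 CPM. Genotype results in hippocampus are given with and without these libraries.

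Hippocampus held the most motile cilium RNA at every period. The 45 genes summed to 285 ± 153 CPM (SD, n = 6) in WT hippocampus at E17.5, 330 ± 40.0 CPM (SD, n = 6) at P7 and 254 ± 36 CPM (SD, n = 5) in adults. Cortex held 115 ± 18.8, 195 ± 27.1 and 139 ± 6.18 CPM over the same periods. The cerebellar sums were 160 ± 11.2, 96.0 ± 25.2 and 146 ± 12 CPM, so that cerebellum ranked above cortex at E17.5 and below it at P7, while the adult ranges overlapped. At E17.5 the WT cerebellar range of 138 to 168 CPM also overlapped that of hippocampus. The wide SD of E17.5 hippocampus came from 2 libraries, S2_11 at 524 CPM and S4_7 at 423 CPM, the other 4 WT libraries lying between 157 and 251 CPM. Without S2_11 the mean of that group was 237 CPM. In adult WT hippocampus the highest sums, 284 and 297 CPM, were those of mice 17 and 26, rich in choroid plexus genes. The other adult WT libraries there held 211 to 248 CPM.

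**Figure D1:**
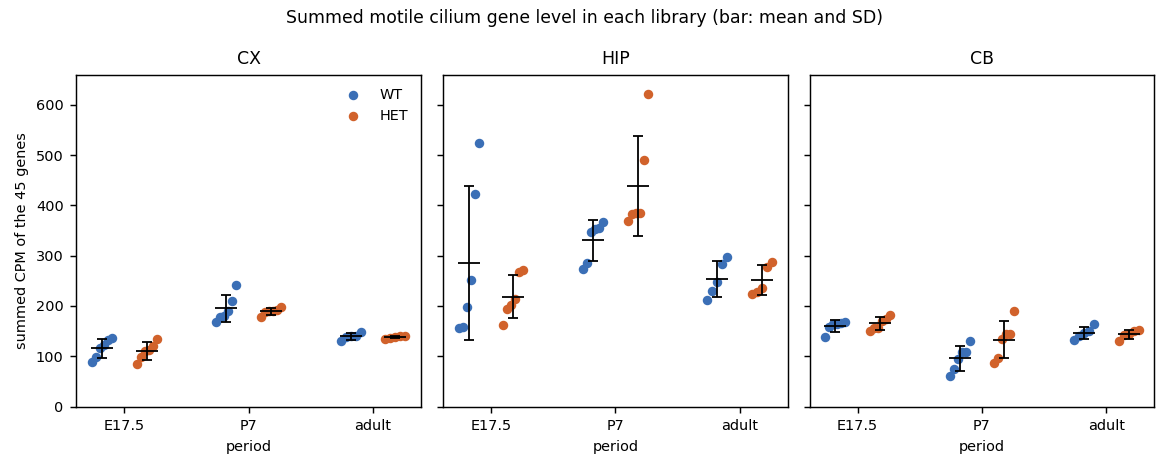
Summed CPM of the 45 genes in each library (points) by period in cortex, hippocampus and cerebellum, WT in blue and HET in orange, with the mean and SD of each group as black bars. Hippocampus is highest at each period, from 254 to 330 CPM in the WT means, and the 6 P7 HIP mutants, at 370 to 621 CPM, all lie above the WT range of 274 to 368 CPM.

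Gene by gene the maximum fell mostly in hippocampus. Of the 45 members 23 had their highest WT mean in P7 hippocampus, 10 in E17.5 hippocampus and 4 in adult hippocampus. Without S2_11, an exclusion made after seeing the data, the maximum of Cfap44, Cfap126 and Armc3 passed to P7 hippocampus, leaving 7 in E17.5 hippocampus, and without S2_11 and S4_7 there were 4, Foxj1, Ccdc40, Hydin and Cfap43. The 8 others were Dnah5 and Ccdc39, highest in P7 cortex, Cfap69, highest in adult cortex, Dnah7b and Ccdc60, highest in E17.5 cerebellum, Cfap61, highest in P7 cerebellum, and Dnah11 and Dnah6, highest in adult cerebellum. Levels spanned a wide range. Per kilobase of exon, averaged over the 9 WT group means, Rsph9 was highest at 6.93 CPM per kb, followed by Foxj1 at 4.19, Drc1 at 3.19 and Ccdc39 at 2.49 CPM per kb, and Dnah3 was lowest at 0.0641 CPM per kb.

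**Figure D2:**
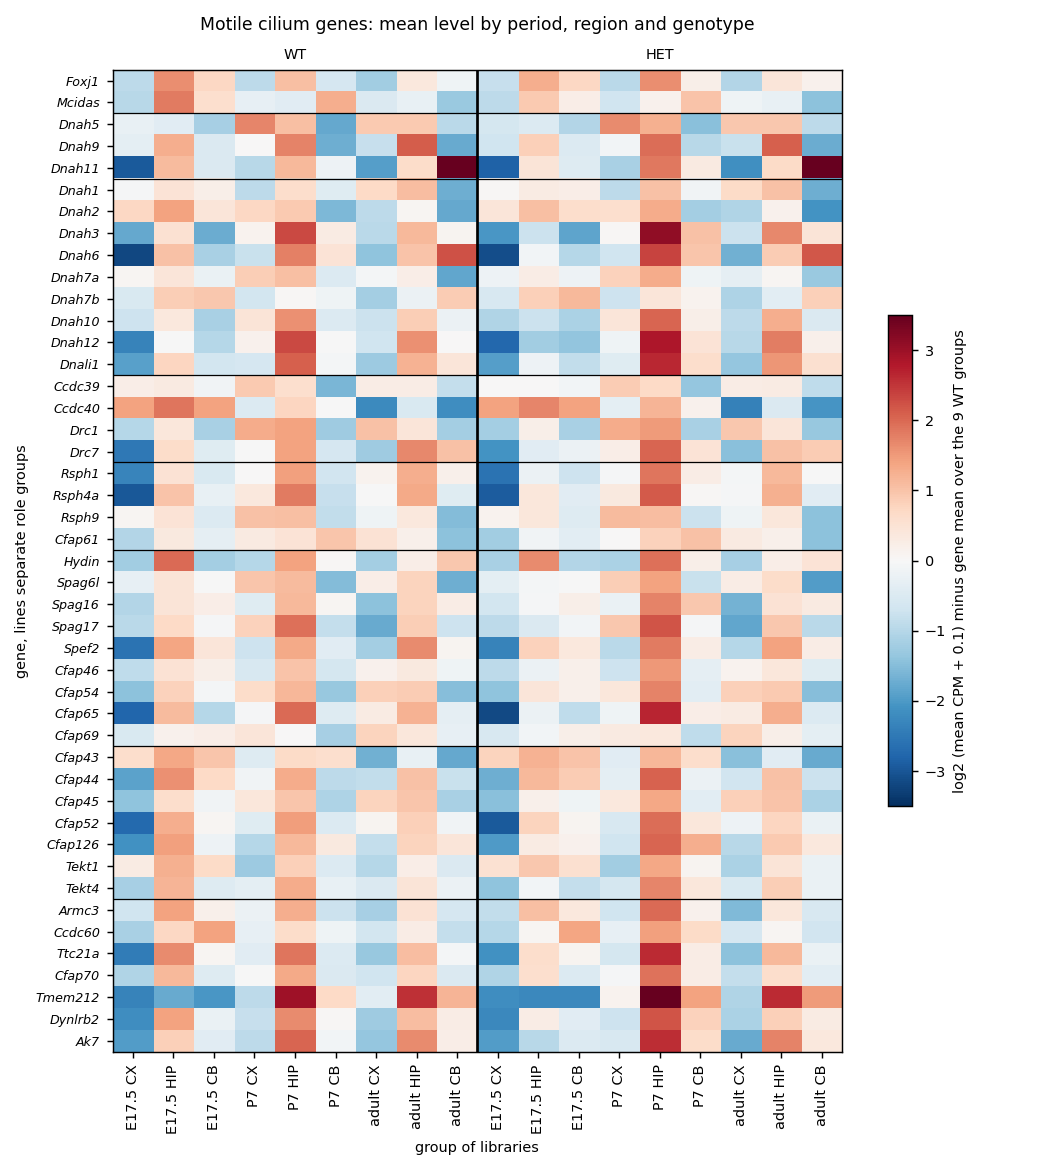
Level of each of the 45 genes (rows, grouped by role between the lines) in the 18 groups of libraries (columns, WT left and HET right), as log2 (mean CPM + 0.1) minus the gene's mean over the 9 WT groups. Hippocampal columns are red for most genes, with Dnah11 and Dnah6 red in adult cerebellum, in WT as in HET columns.

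Promoters of several members held a match to the X-box, the DNA element read by RFX factors, which act beside Foxj1 on cilium genes. RefSeq promoters on GRCm38.p6, from 250 bases before to 50 after the gene start, were given for 39 of the 45 members. The X-box, searched on both strands as GTNNCC and GNAAC with 2 or 3 bases of any kind between them, matched 10 of the 39, or 25.6%, against 4.22% of all 27025 promoters in the table. The forkhead core TGTTTAC, the letters read by factors of the Foxj1 class, matched 2 of 39, or 5.13%, against 4.05% of all. These are letter matches in a fixed window and were not tested for binding. The 4 windows below are shown because each belongs to a member whose level the results turn on, with the matched letters in capitals, written 5′ to 3′ on the strand of the gene.

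Hydin, chr8:110266897-110266976, plus strand: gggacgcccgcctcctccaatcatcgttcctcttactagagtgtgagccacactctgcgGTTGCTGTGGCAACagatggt
Dnah9, chr11:66168587-66168666, minus strand: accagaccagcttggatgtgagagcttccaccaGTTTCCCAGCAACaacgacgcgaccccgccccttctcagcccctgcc
Ccdc60, chr5:116288986-116289065, minus strand: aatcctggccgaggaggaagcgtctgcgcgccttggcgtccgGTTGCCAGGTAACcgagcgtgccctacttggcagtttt
Spag16, chr1:69826834-69826913, plus strand: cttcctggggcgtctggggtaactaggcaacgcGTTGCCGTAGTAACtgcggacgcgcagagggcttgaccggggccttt

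Both transcriptional regulators had their highest WT mean in E17.5 hippocampus, which for Mcidas rested on 1 library. Foxj1, the forkhead factor that drives motile ciliogenesis, averaged 27.5 CPM in WT hippocampus at E17.5, 18.4 at P7 and 11.4 in adults. Its 6 E17.5 HIP libraries ran from 15.7 over a median of 22.2 to 46.6 CPM, its P7 libraries from 11.8 over 18.3 to 23.8 CPM, and the adult libraries stood at 8.21, 8.27, 13.9, 16.3 and 10.5 CPM, so that successive periods overlapped. The adult values of 13.9 and 16.3 CPM were those of mice 17 and 26, whose libraries were rich in choroid plexus genes. The other adult values lay below all of P7. In cerebellum Foxj1 averaged 14.7, 5.86 and 8.01 CPM, and the E17.5 libraries, at 11.96 CPM or more, all lay above the later ones. Cortex stayed low at 4.68, 4.63 and 3.71 CPM.

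Mcidas, the multicilin gene that starts multiciliated cell differentiation, was scarce. Its WT mean was 1.13 CPM in E17.5 hippocampus, with a lowest value of 0.213, a median of 0.657 and a highest of 3.22 CPM in S4_7, without which the mean was 0.709 CPM and below that of P7 cerebellum, and 0.166 and 0.191 CPM there at P7 and in adults. Cerebellum took another course, from 0.428 CPM at E17.5 to 0.749 CPM at P7 and 0.0422 CPM in adults, where the 5 WT libraries held 7 counts in all. The 6 P7 CB libraries lay between 0.688 and 0.815 CPM, above every WT library of cortex and hippocampus at P7.

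Outer dynein arm heavy chains, the main motors of the beat, did not share a pattern. Dnah9 was highest in adult hippocampus, at 38.0, 38.6, 36.8, 39.0 and 36.9 CPM in the 5 WT libraries, against a mean of 2.47 CPM in adult cerebellum. Its hippocampal mean was 20.9 CPM at E17.5 and 29.1 CPM at P7, and the adult values lay above all 6 of P7, which reached 35.7 CPM. Dnah5 peaked in P7 cortex at 23 CPM, with 5.81 CPM there at E17.5 and 13.2 CPM in adults, and held 1.94 CPM in P7 cerebellum.

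Dnah11 set adult cerebellum apart. The WT means in cerebellum were 1.74 CPM at E17.5, 2.21 CPM at P7 and 32.4 CPM in adults, when the 5 WT libraries held 29.5, 31.7, 33.8, 31.4 and 35.4 CPM. The 5 adult HET libraries held 34.5, 33.8, 32.6, 27.6 and 27.3 CPM, so the adult level overlapped between genotypes. In hippocampus Dnah11 averaged 5.53, 5.67 and 3.99 CPM and in cortex 0.239, 1.23 and 0.579 CPM. Dnah11 exons overlap Cdca7l on the opposite strand over 4.44% of their length. Dnah11 was named for the size of its change, after its values were seen.

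**Figure D3:**
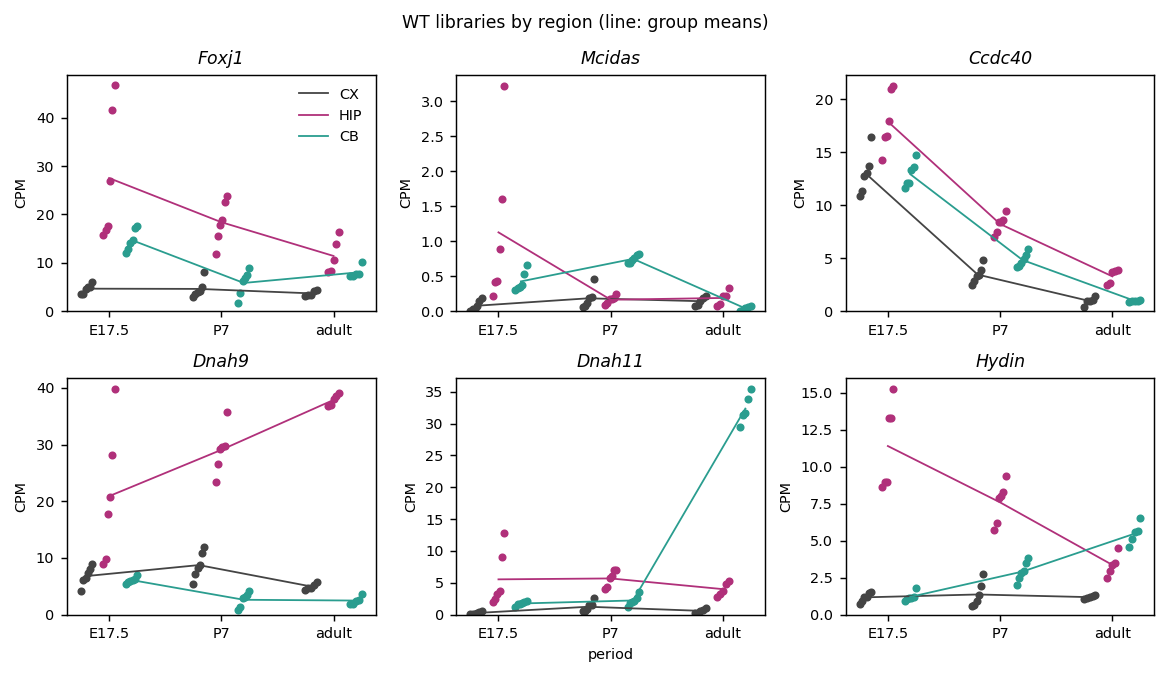
CPM of 6 genes in the WT libraries (points) by period, with lines through the group means of cortex, hippocampus and cerebellum. Foxj1 falls in hippocampus and Ccdc40 in all 3 regions, Dnah9 rises in hippocampus to 37.9 CPM, Dnah11 reaches 32.4 CPM in adult cerebellum, and Hydin falls in hippocampus while it rises in cerebellum.

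Inner dynein arm chains, which shape the bend, split in adult cerebellum. Dnah6 reached 17.9 CPM there, with a lowest, median and highest value of 15.2, 18.1 and 21.2 CPM in the 5 WT libraries, against a mean of 13 CPM in P7 hippocampus. Dnah7b stood at 15.4 CPM in the same tissue, close to its maximum of 16 CPM in E17.5 cerebellum. Dnah1 was lowest there at 1.25 CPM, while adult hippocampus and cortex held 9.25 and 7.14 CPM. Dnah2 fell from 11.2 CPM in E17.5 hippocampus to 4.38 CPM in adults, whereas Dnah3, Dnah10, Dnah12 and the light intermediate chain Dnali1 peaked in P7 hippocampus at 3.36, 5.31, 5.50 and 3.35 CPM.

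The gene with the most CPM in each role, uncorrected for length, is given by library, which for the inner arms is Dnah7b. Its E17.5 CB libraries ran from 12.3 over a median of 15.4 to 20.3 CPM. Of all stretches of 100 exonic bases, 14.3% in Dnah7b and 19.1% in Dnah7a occur in another gene of the Dnah7 cluster, so counts of these paralogs are uncertain. Dnah7a averaged 2.95 CPM in P7 hippocampus and 0.314 CPM in adult cerebellum.

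The ruler genes Ccdc39 and Ccdc40, whose products space the structures along the doublet, diverged. Ccdc39 was highest in P7 cortex at 31.4 CPM, with 27, 31.4 and 35.5 CPM as lowest, median and highest value, and lowest in P7 cerebellum at 5.4 CPM. Ccdc39 overlaps Ttc14 on the opposite strand over 16.9% of its exons. Ccdc40 fell in all 3 regions, from 17.9 to 8.24 and 3.30 CPM in hippocampus, from 13 to 3.47 and 0.967 CPM in cortex and from 12.9 to 4.84 and 0.990 CPM in cerebellum. In each region every E17.5 value of Ccdc40 lay above every P7 value, and every P7 value above every adult value. Of the nexin-dynein regulatory complex, Drc1 was highest in P7 hippocampus at 17.7 CPM and close to that in P7 cortex at 16.4 CPM, and Drc7 stayed at 4.13 CPM or less.

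Radial spoke genes peaked at P7. Rsph9, of the spoke head, held 20.2 CPM in P7 hippocampus and 19.6 CPM in P7 cortex, with lowest, median and highest values of 17.9, 20.2 and 22.8 CPM against 16.7, 20.1 and 21.8 CPM, which overlapped. Rsph4a and Rsph1 reached 9.49 and 4.39 CPM in P7 hippocampus. Cfap61, at the spoke base, was unlike them with a maximum of 3.71 CPM in P7 cerebellum.

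In the central apparatus 6 of 9 genes were highest in P7 hippocampus, among them Spag6l at 12.3 CPM and Cfap54 at 11.5 CPM. Hydin, of the projections of the central pair, fell in hippocampus from 11.4 CPM at E17.5 to 7.58 CPM at P7 and 3.35 CPM in adults, and rose in cerebellum from 1.19 to 2.91 and 5.47 CPM. Cfap69, the gene with the most CPM here, peaked outside hippocampus, with 15.2, 15.2, 13.3, 14.8 and 15.3 CPM in adult WT cortex against a mean of 11.3 CPM in adult hippocampus. Spag17, with 15.7% of its exons overlapped on the opposite strand, peaked in P7 hippocampus at 3.11 CPM.

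Among the doublet and tether proteins, Cfap43, which tethers inner dyneins, fell in hippocampus from 15.1 CPM to 9.25 and 4.80 CPM. Its E17.5 HIP libraries ran from 9.74 over a median of 12.3 to 30.7 CPM. Its partner Cfap44 held 9.86, 7.98 and 6.62 CPM there. Cfap45 and Cfap52, proteins of the microtubule lumen, reached 3.28 and 4.16 CPM in P7 hippocampus, and the tektins Tekt1 and Tekt4 reached 5.05 CPM in E17.5 and 0.991 CPM in P7 hippocampus. Cfap126, which helps place basal bodies, was at 1.71 CPM in E17.5 hippocampus, and at 0.665 CPM there without S2_11.

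The other members were of low level, and all but Ccdc60 had their highest WT mean in hippocampus. Ak7, an adenylate kinase of the axoneme, had the most CPM of them, with 5.04, 6.70 and 7.44 CPM as lowest, median and highest value in P7 hippocampus and a mean of 4.88 CPM in adults. Tmem212 had 0 counts in all 6 E17.5 CX libraries of WT mice, and 9 counts in all in E17.5 hippocampus, against 3.82 CPM in P7 hippocampus. Ttc21a, a relative of an intraflagellar transport gene, Cfap70, Dynlrb2, a dynein light chain, and Armc3 reached 5.51, 2.52, 2.55 and 2.56 CPM in hippocampus, and Ccdc60 did not pass 1.58 CPM.

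Regions of the same WT mice were compared with edgeR's quasi-likelihood test across all genes, with mouse as a block, and calls were made at an adjusted p (Benjamini-Hochberg) of at most 0.1. These levels chose the members, so counts are given beside the share of all genes called and are not read as support. At E17.5, 35 of 37 members tested were higher in hippocampus than in cortex and none lower, where 25.4% of all genes were called higher and 19.0% lower. The median log2 fold change was 1.63. Without S2_11 it was 1.37 with 30 of 37 higher, where 39.2% of all genes were called in either direction. Cfap52 and Dnah11 differed most, by 4.75 ± 0.42 (SE) and 4.53 ± 0.25 (SE) on the log2 scale. The smallest differences, −0.04 in Dnah5 and 0.05 in Ccdc39, belonged to genes that cortex held at levels like those of hippocampus.

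Cerebellum lay between the other regions at E17.5. From cortex to cerebellum 28 of 40 members were called higher and 1 lower, against 32.3% and 30.8% of all genes, with a median log2 fold change of 1.32. Spef2 and Cfap52 gained most, by 3.63 and 3.62 on the log2 scale, and Dnah5 at −0.66 and Rsph9 at −0.45 stood at the other end, of which Rsph9 was called. From hippocampus to cerebellum 14 of 42 were called lower and none higher, against 20.4% and 24.3% of all genes, with Hydin at −3.23 ± 0.13 (SE) and Dnah9 at −1.58 at the low end. Without the block 25 were lower, where 47.4% of all genes were called in either direction. Ccdc60 at 1.0 and Cfap69 at 0.16 were at the high end and not called.

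At P7 hippocampus stood above both other regions. From cortex to hippocampus 35 of 44 members were called higher and 3 lower, against 28.2% and 31.7% of all genes, with a median log2 fold change of 1.53. Tmem212 and Ak7 differed most, by 4.50 and 3.18, and the 3 that were lower were Dnah5 at −0.68, Cfap69 at −0.46 and Ccdc39 at −0.35. From hippocampus to cerebellum 41 of 45 were lower and 2 higher, against 39.2% and 40.0% of all genes, with a median of −2.12. Dnah9 fell by 3.51 and Spag17 by 3.05 on the log2 scale, and the 2 higher genes were Mcidas at 2.18 and Cfap61 at 0.50. Cortex and cerebellum divided the members, with 13 of 44 higher in cerebellum and 15 lower against 41.7% and 39.2% of all genes, and a median of −0.09. Mcidas at 2.12 and Tmem212 at 1.99 led on the cerebellar side, and Dnah5 at −3.60 and Drc1 at −2.60 on the cortical side.

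In adults the same comparison of cortex with hippocampus called 35 of 44 members higher in hippocampus and 2 lower, against 29.2% and 28.6% of all genes, with a median log2 fold change of 1.44. Tmem212 at 3.26 and Spag17 at 3.19 differed most, and Drc1 at −0.62 and Cfap69 at −0.40 were the 2 lower genes. From hippocampus to cerebellum 37 of 44 were lower and 4 higher, against 36.2% and 36.6% of all genes, with Dnah9 at −3.97 and Dnah1 at −2.89 at the low end. The 4 higher genes were Dnah11 at 3.03, Dnah6 at 1.27, Dnah7b at 1.09 and Hydin at 0.71. From cortex to cerebellum 20 of 42 were higher and 15 lower, against 37.5% and 36.3% of all genes. Dnah11 was higher in cerebellum by 5.79 ± 0.24 (SE) and Dnah6 by 3.69, while Dnah1 was lower by 2.54 and Cfap54 by 2.39 on the log2 scale.

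The order of regions was also read within each mouse, from the members that reached 1 CPM in any of its 3 libraries. At P7 between 31 and 43 members per mouse were highest in hippocampus, and in adults between 25 and 36. At E17.5 the mice differed, from 10 members in hippocampus to 44. The mice S3_6, S3_8 and S3_9 had more members highest in cerebellum, at 20, 17 and 20, than in hippocampus, at 12, 12 and 10. The 4 mice whose names share the prefix S3, 2 of each genotype, also had the lowest member sums of their period in hippocampus, 157 to 194 CPM against 198 to 524 CPM in the other 8, and in cortex, 83.7 to 98.3 CPM against 110 to 136 CPM, without overlap in either region. In cerebellum the same mice held 165 to 182 CPM. The meaning of the prefix was not given in the sources used here.

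The adult mice 22 and 23, which took no part in the choice of the members, also had their highest sum in hippocampus. In mouse 22 the sums were 136 CPM in cortex, 262 CPM in hippocampus and 190 CPM in cerebellum. In mouse 23 they were 142, 233 and 158 CPM. Their cerebellar libraries were rich in choroid plexus genes, at 4672 CPM in mouse 22 and 1854 CPM in mouse 23. Of the 42 and 40 members that reached 1 CPM, 27 in each mouse were highest in hippocampus. Dnah11 stood at 32.7 and 35.6 CPM in their cerebellum, and Dnah9 at 39.6 and 42.8 CPM in their hippocampus.

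Periods were compared in WT libraries within each region by the same test without a block, as the mice differ between periods. Cortex gained these transcripts between E17.5 and P7, when 28 of 38 members were called higher and 4 lower, against 39.5% and 42.0% of all genes, with a median log2 fold change of 1.18. Rsph4a at 3.71 and Cfap65 at 3.39 rose most, and the 4 that fell were Ccdc40 at −1.97, Tekt1 at −1.75, Cfap43 at −1.14 and Dnah1 at −0.98. All 4 radial spoke genes and all 5 of the other members tested were called higher. Between P7 and adult cortex 24 of 39 fell and 4 rose, against 37.0% and 35.4% of all genes, with Spag17 at −3.12 and Ccdc40 at −1.79 at the low end. The 4 that rose were Dnah1 at 1.71, Cfap46 at 0.79, Cfap45 at 0.44 and Cfap69 at 0.39.

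Hippocampus changed less between E17.5 and P7, with 11 of 44 members called higher and 5 lower, against 37.5% and 39.3% of all genes. Leaving out 1 library at a time gave 10 to 23 higher and 4 to 8 lower, where 73.85% to 77.41% of all genes were called in either direction. In HET libraries 39 members were higher and 2 lower, where 76.8% of all genes were called in either direction. Tmem212, with 9 counts over the E17.5 libraries and 819 over those of P7, and Dnah12 at 2.33 gained most, while the 5 that fell were Ccdc40 at −1.14, Dnah7b at −0.83, Cfap43 at −0.73, Hydin at −0.61 and Foxj1 at −0.60. From P7 to adult 29 of 44 fell and 4 rose, against 37.5% and 36.8% of all genes, with a median of −0.60. Ccdc40 at −1.30 and Dnah3 at −1.21 fell most, and the 4 that rose were Dnah1 at 0.48, Cfap69 at 0.42, Dnah9 at 0.40 and Spef2 at 0.36.

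WT cerebellum moved the opposite way to cortex before P7, with a median log2 fold change of −0.58. There 21 of 42 members were lower at P7 than at E17.5 and 6 higher, against 38.4% and 37.1% of all genes. In HET libraries 16 of 44 were lower and 17 higher, with a median of 0.03, where 74.6% of all genes were called in either direction. Dnah2 at −2.11 and Ccdc60 at −1.77 fell most, and Dnah6 at 1.64 and Cfap61 at 1.3 rose most. From P7 to adult 10 of 45 rose and 7 fell, against 39.7% and 40.2% of all genes, led by Dnah11 at 3.85 and Dnah6 at 1.74 on the higher side and Mcidas at −4.06 and Cfap61 at −2.57 on the lower. The adult Mcidas level rests on 7 counts.

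Outside the members, the 10 genes whose log2 profile over the 9 WT group means was most like the mean member profile, by Pearson's r over 9 means that share libraries with it, were Ppp1r32 at 0.995, Ttll6 at 0.977, Ttc29 at 0.956, Ccdc81 at 0.956, Trps1 at 0.953, Iqcd, Pygb, Ubxn10 and Maats1 at 0.947 each, and Ccdc180 at 0.945. Ppp1r32 ran from 0.154 CPM in E17.5 cortex to 1.98 CPM in P7 hippocampus, while Pygb, brain glycogen phosphorylase, ran from 131 to 306 CPM, so that likeness of shape did not go with likeness of level. Among the members themselves r was lowest in Ccdc40 at 0.237, Cfap43 at 0.312 and Cfap69 at 0.316 and highest in Cfap70 at 0.982, Ttc21a at 0.968 and Tekt4 at 0.960.

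Genotype was tested in each of the 9 datasets with edgeR's quasi-likelihood test, and no member was called at an adjusted p of at most 0.1 in any. Cul3 was the only gene called in each. Levels of both genotypes in all 9 datasets were in view when the members were chosen, so counts of members are a description and are not read as support. That gene was 0.00603%, 0.00586% and 0.00568% of those tested in E17.5 cortex, hippocampus and cerebellum, 0.00566%, 0.00563% and 0.0057% at P7, and 0.00569%, 0.00584% and 0.00584% in adults. Of single datasets, at an unadjusted p under 0.05 members were counted mainly in 3 of them, E17.5 hippocampus, P7 hippocampus and P7 cerebellum, described in turn. The median log2 fold change of the members, HET over WT, lay between −0.04 and 0.02 in the other 6.

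**Figure D4:**
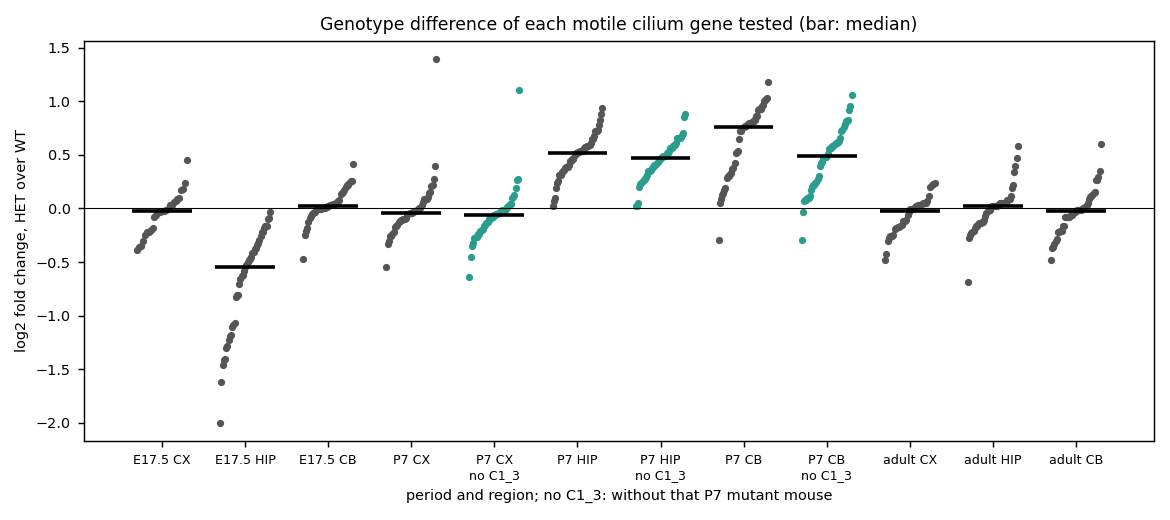
log2 fold change, HET over WT, of each member that passed the low-count filter (points, sorted within a dataset), with the median as a bar. The 3 P7 datasets are repeated without mouse C1_3 in green. The medians stand at 0.52 in P7 hippocampus, 0.77 in P7 cerebellum and −0.54 in E17.5 hippocampus, and between −0.04 and 0.02 in the other 6.

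In P7 hippocampus the members were higher in mutants. This contrast was among the values that chose the members, so it is described without single p-values and nothing is read from its counts. The summed level was 330 ± 40.0 CPM in WT and 439 ± 99.5 CPM in HET mice (SD, n = 6 each), with values of 274 to 368 and 370 to 621 CPM that did not overlap. Mouse C2_9 was highest at 621 CPM and C1_3 next at 489 CPM. All 44 members tested had a fold change above 0, where 52.5% of all genes did, and 32 had an unadjusted p under 0.05 in that direction and none in the other, where 3.45% and 1.6% of all genes did. DESeq2 called 1 member, Armc3, and 0.0339% of all genes. RUVs models with 3 and 5 factors of unwanted variation called 22 and 23 members, and 0.783% and 1.17% of all genes.

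Foxj1 ran from 11.8 over a median of 18.3 to 23.8 CPM in WT and from 19.7 over 27.3 to 36.2 CPM in HET libraries, a log2 fold change of 0.59 ± 0.17 (SE), with overlapping ranges. Mcidas did not pass the low-count filter, with 4 to 8 counts per WT and 5 to 17 per HET library. Armc3 ran from 1.85 over 2.40 to 2.86 CPM in WT and from 2.85 over 3.93 to 4.93 CPM in HET libraries, 0.73 ± 0.16 (SE) on the log2 scale, the ranges meeting at 1 value. Cfap43, Ccdc60 and Ttc21a did not overlap between genotypes, as did 0.158% of all genes in that direction. For Ccdc60 the lowest, median and highest values were 0.546, 0.890 and 1.20 CPM in WT against 1.25, 1.51 and 2.35 CPM in HET libraries, and for Ttc21a 4.20, 5.75 and 6.54 CPM against 6.73, 7.78 and 13.7 CPM. Cfap43 lay between 7.14 and 10.2 CPM in WT and between 10.3 and 18.5 CPM in HET libraries.

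By role, the other members had a median fold change of 0.57 and the central apparatus and doublet proteins medians of 0.53 and 0.51, beside 0.59 in Foxj1, the single regulator tested. The outer arm heavy chains had a median of 0.24 and the ruler and nexin-dynein genes 0.27. Cfap126 at 0.94 ± 0.28, Ccdc60 at 0.88 ± 0.20 and Dnah3 at 0.83 ± 0.27 (SE) were the largest single fold changes. The smallest were Rsph9 at 0.03 ± 0.08, Drc1 at 0.07 ± 0.10 and Ccdc39 at 0.10 ± 0.13 (SE), genes that P7 cortex also held, at WT means of 19.6, 16.4 and 31.4 CPM.

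Mouse C1_3 was rich in choroid plexus genes, of which all 20 reached 1 CPM in it and 9 to 16 in the other libraries. Choroid plexus genes as a list had 18 of 18 tested above 0 and a median of 1.65 with this mouse, and 8 of 18 above 0 and a median of −0.03 without it. Without C1_3 all 44 kept a fold change above 0, their median was 0.47, 24 had an unadjusted p under 0.05, where 2.3% of all genes did, and Cfap43, Ccdc60 and Ttc21a did not overlap, as did 0.218% of all genes. Foxj1 was then at 0.56 ± 0.18 (SE). The other high mutant, C2_9, held 122 CPM of choroid plexus genes, within the WT range of 71.5 to 240 CPM. Without C1_3 and C2_9, an exclusion made after seeing the data, 42 of 44 members lay above 0 and the median was 0.23. An unadjusted p under 0.05 was then held by 12. The shares of all genes in that fit are not given here, so nothing is read from these counts. Within the prefixes C1, C2 and C4 of the mouse names, the HET minus WT difference of the libraries' median member log2 level was 0.36, 0.51 and 0.47, the last of 1 mouse per genotype.

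Sums of the ependymal and meningeal marker lists overlapped between genotypes in P7 hippocampus. The 8 ependymal genes outside the axoneme, led by Aqp4, Cd24a and Gja1, which other cell types express too, summed to 815 to 959 CPM in WT and 819 to 1001 CPM in HET libraries, with a median fold change of 0.06. Meningeal genes averaged a sum of 397 CPM in WT and 499 CPM in HET libraries. They summed to 243 to 534 CPM in WT, 1103 CPM in C1_3 and 288 to 479 CPM in the other mutants. Their part in the result was not tested.

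In P7 cerebellum 44 of 45 members were higher in mutants, where 51.7% of all genes were, with a median log2 fold change of 0.77. The levels of both genotypes here were in view when the members were chosen, so these counts and tests are a description. Sums were 60.2 to 130 CPM in WT and 87.2 to 189 CPM in HET libraries, which overlapped. At an unadjusted p under 0.05 there were 14 members higher and none lower, against 3.78% and 1.11% of all genes, and DESeq2 called none at an adjusted p of at most 0.1. Spag16 had the smallest p, with 0.563, 0.953 and 1.39 CPM as lowest, median and highest value in WT and 0.895, 2.04 and 2.76 CPM in HET libraries. It differed by 0.96 ± 0.31 (SE) on the log2 scale, with an adjusted p of 0.915 by edgeR's quasi-likelihood test. Ccdc60 at 0.97 ± 0.33 (SE) and Cfap126 at 1.03 ± 0.36 (SE) followed, with adjusted p of 0.915 and 0.927 by the same edgeR test, and overlapped too. Ccdc60 ran from 0.137 over 0.423 to 0.933 CPM in WT and from 0.577 over 1.03 to 1.11 CPM in HET libraries, and Cfap126 from 0.274 over 0.761 to 1.40 CPM against 0.519 over 1.57 to 2.16 CPM. Mcidas was the single member below 0, at −0.30 ± 0.15 (SE).

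Choroid plexus genes were higher in mutants here too. All 20 were above 0 with a median of 1.75, and they summed to 980 to 3211 CPM in 5 of 6 mutants and 141 CPM in C2_5, against 131 to 521 CPM in 5 of 6 WT libraries and 1842 CPM in C2_10. C2_10 held the highest member sum of the WT libraries, 130 CPM, and C2_5 the lowest of the mutants, 87.2 CPM. Other libraries were not in the same order in both. Mutant C1_7 held 980 CPM of choroid plexus genes and 96.5 CPM of members, and WT mouse C4_5 148 and 108 CPM. Mutant C2_6 held 3211 CPM of choroid plexus genes and 144.5 CPM of members, and C1_3 1938 and 189 CPM. Without C1_3, 43 of 45 members were above 0, Spag16, Ccdc60 and Cfap126 had an unadjusted p under 0.05, against 2.77% of all genes, and the median was 0.49. With 3 and 5 RUVs factors it was 0.24 and 0.19. The part of choroid plexus in the difference was not tested.

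**Figure D5:**
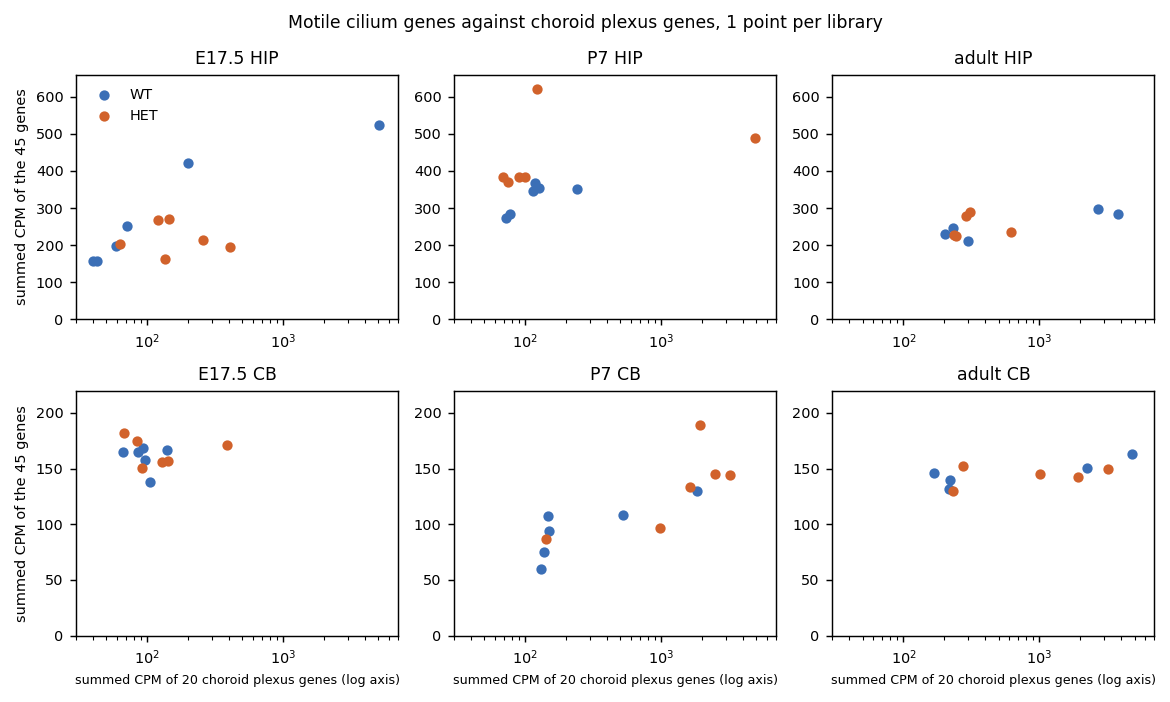
Summed CPM of the 45 genes (vertical axis) against the summed CPM of 20 choroid plexus genes (horizontal log axis) in each hippocampal and cerebellar library, WT in blue and HET in orange. In P7 cerebellum the libraries with the higher choroid plexus sums are mostly mutants, whereas in P7 hippocampus 5 of 6 mutants lie at 68 to 122 CPM of choroid plexus genes, among the WT libraries, and above them in the cilium genes.

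In E17.5 hippocampus the sign was the other one. The levels of both genotypes were in view here too when the members were chosen, so the counts and tests below are a description. All 43 members tested had a fold change below 0, where 50.8% of all genes lay above 0, with a median of −0.54, and 4 had an unadjusted p under 0.05, where 0.979% of all genes did in that direction and 1.31% in the other. These were Dnah10 at −1.23 ± 0.47, Ak7 at −2.0 ± 0.79, Dnali1 at −1.09 ± 0.44 and Spag17 at −1.41 ± 0.59 (SE), each with an adjusted p of 0.941 by edgeR's quasi-likelihood test. Dnah10 ran from 0.651 over a median of 1.29 to 6.05 CPM in WT and from 0.537 over 0.893 to 1.46 CPM in HET libraries, and Ak7 from 0.319 over 0.977 to 8.85 CPM against 0.269 over 0.557 to 1.56 CPM. For Dnali1 the values were 0.532, 0.917 and 2.38 CPM against 0.269, 0.532 and 1.19 CPM. In Dnah10 and Ak7 the HET range lay largely within that of the WT libraries. In Dnali1 the HET median stood at the lowest WT value, so the mutants reached below the WT range. The upper end of the WT range was set by S2_11 or S4_7 in each of these genes.

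The WT mouse S2_11, with 5076 CPM of choroid plexus genes, held 524 CPM of member transcripts, and S4_7, with 200 CPM of choroid plexus genes, 423 CPM. All 6 mutants lay between 162 and 271 CPM. Without S2_11, an exclusion made after seeing the data, 6 of 43 members lay above 0 and the median was −0.19. At an unadjusted p under 0.05 there was then 1 member, Dnah10, where 6.69% of all genes passed in either direction. Within the name prefixes the difference of library medians was −0.70 in S2, 0.25 in S3 and −0.17 in S4, so its sign was not the same in all 3. Foxj1 ran from 15.7 over 22.2 to 46.6 CPM in WT and from 17.9 over 20.6 to 29.7 CPM in HET libraries. RUVs models called 1 member, Ak7, with 3 factors and 5 with 5 factors, which added Dnah10, Dnali1, Spag17 and Foxj1, where 0.34% and 1.11% of all genes were called. DESeq2 called none.

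In the remaining 6 datasets at most 1 member per direction had an unadjusted p under 0.05. In adult cerebellum Hydin was lower in mutants by 0.48 ± 0.11 (SE) on the log2 scale, with an adjusted p of 0.293 by edgeR's quasi-likelihood test. Its WT libraries stood at 5.62, 5.07, 6.50, 5.57 and 4.59 CPM and its HET libraries at 4.40, 4.05, 3.93, 3.92 and 3.56 CPM, without overlap, as did 1.02% of all genes in that direction. DESeq2 called 1 member there, Hydin, and 1.27% of all genes. Dnah7a was higher by 0.60 ± 0.26 (SE), at 0.320, 0.381, 0.178, 0.273 and 0.420 CPM in WT against 0.650, 0.502, 0.541, 0.416 and 0.356 CPM in HET libraries, with an adjusted p of 0.344 by edgeR. In that dataset 5.71% of all genes had an unadjusted p under 0.05 in the higher and 8.66% in the lower direction.

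In adult hippocampus Cfap69 was lower by 0.21 ± 0.07 (SE), at 11.7, 10.2, 11.4, 12.5 and 10.7 CPM in WT and 9.21, 9.59, 9.32, 10.1 and 10.6 CPM in HET libraries, which overlapped. Dnah3 was higher by 0.58 ± 0.26 (SE), at 1.29, 0.951, 1.51, 1.67 and 1.72 CPM in WT against 2.22, 1.26, 3.19, 1.35 and 2.72 CPM in HET libraries. Both had an adjusted p of 0.796 by edgeR's quasi-likelihood test, and 3.4% and 2.84% of all genes were past the unadjusted threshold in the higher and lower direction. Here 24 of 44 members had a fold change above 0 and the median was 0.02. Without the WT mice 17 and 26, an exclusion made after seeing the data, 37 of 44 lay above 0 and the median was 0.17. At an unadjusted p under 0.05 by edgeR 6 members were then higher, where 12.4% of all genes passed in either direction. The share in the higher direction alone is not given here, so nothing is read from that count. No member was called by edgeR in that fit, where 0.0857% of all genes were.

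P7 cortex had Tmem212 higher by 1.40 ± 0.53 (SE), at 0 to 0.360 CPM in WT and 0.263 to 0.836 CPM in HET libraries, and Armc3 lower by 0.55 ± 0.23 (SE), at 0.598 to 1.19 CPM in WT and 0.368 to 0.720 CPM in HET libraries. The adjusted p was 0.900 for each by edgeR's quasi-likelihood test, and 1.52% and 1.7% of all genes were past the unadjusted threshold in the higher and lower direction. No member passed the unadjusted threshold in E17.5 cortex, E17.5 cerebellum or adult cortex by the edgeR test, where 0.585%, 1.66% and 2.07% of all genes did in the higher and 1.08%, 1.84% and 1.59% in the lower direction. Fold changes above 0 were held by 10 of 27 members in E17.5 cortex, 26 of 41 in E17.5 cerebellum and 15 of 36 in adult cortex, against 49.5%, 51.1% and 52.0% of all genes. The smallest p belonged to Tekt1 in E17.5 cortex (adjusted p 0.991 by edgeR), Dnah7b in E17.5 cerebellum (adjusted p 0.988 by edgeR) and Foxj1 in adult cortex (adjusted p 0.997 by edgeR). Foxj1 in adult cortex stood at 3.40, 4.41, 4.12, 3.46 and 3.17 CPM in WT and 3.67, 4.61, 4.36, 4.96 and 3.90 CPM in HET libraries, which overlapped.

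Libraries of the genotypes overlapped in every member tested but the 4 named above, Cfap43, Ccdc60 and Ttc21a in P7 hippocampus and Hydin in adult cerebellum. Of all genes, 0.0422%, 0.0528% and 0.0454% stood higher in every mutant library in E17.5 cortex, hippocampus and cerebellum, and 0.0241%, 0.0117% and 0.114% stood lower. At P7 the shares were 0.0736%, 0.158% and 0.125% higher and 0.0736%, 0.0394% and 0.0913% lower. In adults they were 0.211%, 0.514% and 2.03% higher and 0.421%, 0.339% and 1.02% lower.

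Whether the genotype difference varied between regions or periods was tested itself. No member had a genotype-by-region interaction at an adjusted p of at most 0.1 at any period by edgeR's quasi-likelihood F test, nor by DESeq2. At P7, 7 of 45 members had an unadjusted p under 0.05, where 4.57% of all genes did, with the smallest p in Armc3 (adjusted p 0.826 by edgeR). Without mouse C1_3 these were 4, Armc3, Cfap61, Cfap43 and Mcidas, where 3.15% of all genes passed. At E17.5 there was 1 of 43, Spag17, where 2.5% of all genes passed, and in adults none of 44, where 15.8% passed. A genotype-by-period term in hippocampus, added after seeing the data, called none of 45 members. It gave 28 at an unadjusted p under 0.05, where 4.09% of all genes passed, with a smallest adjusted p of 0.997 by edgeR. Without mice S2_11 and C1_3 it gave 9, where 7.56% of all genes passed. This term and the P7 genotype-by-region term contain the P7 HIP contrast that was in view when the members were chosen. Nothing is read from their counts.

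The wider pathway was read from 67 other motile cilium genes, among them dynein intermediate chains, assembly factors and docking proteins. In WT brains their sum was also highest in hippocampus at each period, 357, 373 and 372 CPM, against 249, 315 and 322 CPM in cortex and 276, 224 and 224 CPM in cerebellum. In P7 hippocampus 61 of 64 tested had a fold change above 0, where 52.5% of all genes did, and the median was 0.37. An unadjusted p under 0.05 was held by 32, all in that direction, where 3.45% of all genes passed, and none was called. Without C1_3 these figures were 63 of 64 above 0, 23 past the threshold, against 2.3% of all genes, and a median of 0.32. In P7 cerebellum 50 of 60 lay above 0, against 51.7% of all genes, with a median of 0.48. There 18 were past the unadjusted threshold, where 3.78% of all genes were in the higher and 1.11% in the lower direction. In E17.5 hippocampus 8 of 54 lay above 0, against 50.8% of all genes, with a median of −0.39 and none past the threshold. This list was also drawn up with results of these data known, and it was read in the same libraries.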

How the data were processed

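The submitters' processing notes name cutadapt 1.14, STAR 2.5.3a and RSEM 1.3 with GRCm38.p5 (mm10). Total RNA was ribosome-depleted, and the authors deposited 1 table of RSEM expected counts per gene, not normalized, for 108 libraries of 36 mice. Of its values 5.765% were not whole, and they were rounded. No same-group pair of libraries agreed within sampling noise. Which strand setting the counting used was not given in the sources used here, so exons overlapped on the other strand are named beside the genes they touch.

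Groups came from the labels. The 6 libraries of adult mice 22 and 23, whose genotype differs between labels and supplement, were left out of genotype comparisons. Low genes were removed with filterByExpr at a count of 10 and a total of 15, and the others tested with TMM scaling and the quasi-likelihood test of edgeR 4.0.16 (limma 3.58.1, R 4.3.3), Benjamini-Hochberg adjusted over all genes tested and called at 0.1. SE is the log2 fold change divided by the root of F. Genotype was fitted without covariates within each period and region, regions with mouse as a block, and interactions with mouse and region. The study's methods add RUVs factors and sex; RUVs was an alternative here and sex was not in the labels. Other alternatives were upper-quartile scaling, no low-count filter, DESeq2 1.42.0, a replicate block, HET libraries in place of WT, and leaving out each library. The scripts were tested on simulated data. Levels are TMM CPM over 102 libraries. Totals of 15126114 to 44411282 counts set the precision, and low genes are given with their counts.

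Replicate numbers are shared between genotypes. Deviations of same-numbered libraries correlated above 0.1 in all 6 pairs in E17.5 cortex alone (0.113 to 0.759), so only there were the numbers taken to pair the libraries. In P7 cortex 5 pairs passed this cut, with a lowest value of 0.087. Same-numbered E17.5 libraries also share a name prefix, and what number and prefix each add was not tested.

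The members and gene lists were chosen with earlier results of these data known. Every member may be named with its means, and values by library are given for Foxj1, Mcidas, the member with the highest mean CPM over WT libraries in each role, and the 3 members with the smallest p in each genotype comparison. In period and region comparisons the 2 largest and 2 smallest folds are named, and 10 genes of like profile (log2 of CPM + 0.1, at 1 CPM or more in a group). Marker lists held choroid plexus (20 genes), ependyma outside the axoneme (8), meninges (12), blood (7) and radial glia (8). Figures used matplotlib 3.10.9.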

Additional observations from a re-analysis of the deposited data

Results flagged for a closer look

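In groups of 5 or 6 libraries the highest or lowest value was compared with the rest by Dixon's test at its 95% critical value. Of 334 group-and-gene tests 20 passed, and chance alone passes about 1 in 20 groups, so the number is of the order that chance gives. No explanation was tested for any of them.

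In E17.5 hippocampus WT mouse S2_11, whose library was rich in choroid plexus genes, stood above the others in Cfap126 at 6.94 CPM, Cfap43 at 30.7 CPM and Tekt1 at 10.5 CPM. The same mouse had the lowest summed member level of WT E17.5 cerebellum, 138 CPM. In E17.5 cerebellum Hydin was highest in WT mouse S4_7 at 1.76 CPM and Cfap61 in HET mouse S2_10 at 2.05 CPM.

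In P7 cortex WT mouse C2_2 was highest in Cfap54 at 13.4 CPM and Ttc21a at 2.41 CPM, HET mouse C2_6 lowest in Dnah7a at 1.82 CPM and HET mouse C1_7 apart in Dnah7b at 5.45 CPM. In P7 hippocampus the same WT mouse C2_2 was highest in Cfap61 at 3.65 CPM and Dnah7b at 11.8 CPM. HET mouse C2_9, with the highest member sum of the series, stood apart there in Dnah10 at 13.5 CPM and Dnah3 at 11.9 CPM. In P7 cerebellum Dnah3 was highest in HET mouse C1_3 at 2.73 CPM.

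Among adults Cfap69 was lowest in the cortex of WT mouse 17 at 13.3 CPM, Dnah9 was apart in the cortex of HET mouse 27 at 6.32 CPM, and Foxj1 was highest in the cerebellum of WT mouse 26 at 10.2 CPM. In the cerebellum of HET mouse 14 Dnali1 at 0.443 CPM and Spef2 at 1.36 CPM were lowest.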

How the results depend on the processing

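Members called by genotype went from 0 to 1 and 5 in E17.5 hippocampus and to 22 and 23 in P7 hippocampus with 3 and 5 RUVs factors, and to 1 with DESeq2 in P7 hippocampus and in adult cerebellum. At an unadjusted p under 0.05, members lower in E17.5 hippocampus went from 4 to 7 with no low-count filter, 16 and 18 with RUVs factors and 1 without mouse S2_11. Of all genes the share passing there in either direction went from 2.3% to 3.1%, 7.6%, 9.0% and 6.7% in these settings, in that order. Members higher in P7 hippocampus went from 32 to 12 without C1_3 and C2_9, and the median from 0.52 to 0.23. In P7 cerebellum the 14 higher became 25 with no filter, 2 (Ccdc60 and Cfap126) and 6 with RUVs factors and 3 without C1_3, and the median fell from 0.77 to 0.19 with 5 RUVs factors. Leaving out 1 library gave 0 to 11 lower in E17.5 hippocampus, 21 to 33 higher in P7 hippocampus and 3 to 30 higher in P7 cerebellum. In these E17.5 hippocampal fits 1.1% to 6.7% of all genes passed in either direction. For P7, beyond the shares without C1_3 given above, those of all genes are not given here, so nothing is read from these P7 counts. Leaving out 1 library gave 4 to 7 higher from P7 to adult cortex, 10 to 23 higher and 4 to 8 lower in hippocampus from E17.5 to P7, 5 to 12 higher in cerebellum from E17.5 to P7, 0 to 5 lower from E17.5 cortex to cerebellum and 0 to 1 higher from E17.5 hippocampus to cerebellum. In HET libraries the higher members were 8 from P7 to adult cortex, 39 in hippocampus to P7 (2 lower) and 0 to adults. In HET cerebellum 17 were higher to P7 (16 lower, the median going from −0.58 to 0.03). From P7 to adults 6 were higher there (23 lower, the median going from 0.16 to −0.65). Between HET regions 4 were higher from E17.5 hippocampus to cerebellum, and 1 was lower from P7 cortex to hippocampus. From P7 cortex to cerebellum 25 were higher (12 lower, the median going from −0.09 to 0.68). In these HET fits 69.5% to 81.5% of all genes were called in either direction between periods, and 48.55% to 83.2% between regions. Without the mouse block 2 were lower from E17.5 cortex to cerebellum and 25 from hippocampus, and DESeq2 called 1 higher there. Of all genes 64.7%, 47.4% and 44.9% were called in either direction in the last 3 fits, in that order. The causes were not tested.

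With replicate number as a block no member was called in any dataset. In E17.5 cortex 2 (Cfap43 and Tekt1) were then higher and 5 (Ccdc39, Dnah9, Dnah5, Dnah2 and Dnah10) lower at an unadjusted p under 0.05, from 0 and 0, while the share of all genes there went from 1.67% to 14.5%. With the labels' genotypes for adult mice 22 and 23 the adult medians were −0.04 in cortex, 0.03 in hippocampus and 0.06 in cerebellum, and with those of the supplement −0.03, −0.05 and −0.11, with no member called. The medians under the block were −0.01 in E17.5 cortex, where the numbers were taken to pair the libraries, 0.48 in P7 hippocampus, 0.73 in P7 cerebellum and −0.32 in E17.5 hippocampus.

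Depth limited Mcidas, Tmem212 and the other members near 1 CPM, which in places rest on under 10 counts per library. Dnah7a and Dnah7b share sequence, and Ccdc39, Spag17, Dnah3 and Cfap52 overlap genes of the other strand over 8.36% to 16.9% of their exons.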

Other observations

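Lists around the motile cilium behaved differently from it. The 36 genes of intraflagellar transport and the BBSome, which build and supply primary as well as motile cilia, summed to 1174 to 1751 CPM in the 9 WT groups and were not highest in hippocampus at any period. Cortex led with 1443 CPM at E17.5, 1751 CPM at P7 and 1584 CPM in adults. Their median genotype difference lay between −0.03 and 0.04 on the log2 scale in all 9 datasets, and none was called by edgeR. In P7 hippocampus 19 of 36 lay above 0, where 52.5% of all genes did. At an unadjusted p under 0.05 there were 0 higher and 3 lower, against 3.45% and 1.6% of all genes. Their promoters held the X-box in 7 of 31, or 22.6%, and those of the 67 other motile cilium genes in 25 of 52, or 48.1%.

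The 13 multiciliation regulators, among them Gmnc, Ccno, Myb and the RFX factors, had 8 of 12 tested above 0 in P7 hippocampus, with a median of 0.10. In E17.5 hippocampus 3 of 13 lay above 0, with a median of −0.21. Of all genes 52.5% and 50.8% lay above 0 in these datasets. Radial glia and blood genes had medians of 0.05 and 0.20 in P7 hippocampus and −0.05 and 0.06 in P7 cerebellum. In adult hippocampus, where WT mice 17 and 26 held 3750 and 2692 CPM of choroid plexus genes against 202 to 616 CPM in the other libraries, the choroid plexus list had 0 of 16 above 0 and a median genotype difference of −1.79, and the members one of 0.02, or 0.17 without these mice.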
